A study of Mus musculus and Mus spretus with 72 samples.

Results

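Testis RNA of 4 groups of house mice was set against testis RNA of the laboratory strain C57BL6 on 21 of the 72 arrays of a study of expression divergence between mice. The arrays were chosen by tissue and group label alone: every testis array of dom (Mus musculus domesticus, 6 arrays), mus (musculus, 6 arrays), cas (castaneus, 3 arrays) and ssp (M. musculus of a sub-species that the labels do not name, 6). All were males of roughly 12 weeks, and the labels do not say whether they were caught in the wild or bred. Each array carried 1 mouse in channel 2 and, in channel 1, the same pool of C57BL6 testis RNA from 9 mice, with no dye swap. Brain and liver/kidney of the same 4 groups (21 arrays each, against pools of those tissues) served for comparison, and 3 testis arrays of M. spretus (spretus) are given beside them as another species against the same pool.

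The adult testis is mostly germ cells in the course of spermatogenesis: spermatogonia divide, spermatocytes pass through meiosis, and spermatids pack their DNA with transition proteins and protamines and build a flagellum and an acrosome. Sertoli cells support them inside the tubules, and Leydig cells between the tubules make testosterone. In such bulk tissue, fewer cells of a type and less RNA per cell cannot be told apart. A 2-colour array gives only the ratio of sample to pool at a probe, so testis markers cannot show here that the tissue is testis, and levels of different genes cannot be compared.

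Values are mean log2 ratios ± SE from limma, positive where the house mice were higher than the pool. That direction and the log2 scale are assumptions, since neither is stated; channel 2 held the sample on all 72 arrays, and all signs would turn together if the ratio were inverted. The pool is 1 control sample, so a test of the ratio against 0 leaves out the spread between C57BL6 mice. Nor can a difference from C57BL6 be told apart, within testis alone, from a dye or probe effect that is the same on every array. Per array, 42946 to 44716 of 46128 spots carried a value, and duplicate spots of a probe correlated with r between 0.273 (mus 03) and 0.744 (ssp 03), median 0.554. Over all probes the testis arrays correlated with each other at r from -0.293 to 0.522, median 0.176. By the spots they lack, the arrays fall into sets: 5 dom, 4 mus and all 6 ssp in set 1, 3 cas and mus 07 and mus 08 in set 2, and dom 01 alone in set 4. For cas, set and group cannot be told apart.

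The 4 groups together differed from the C57BL6 pool at many probes and by small amounts, more of them lower than higher. Of 20781 probes tested, limma called 2943 (14.2%) at a Benjamini-Hochberg adjusted p under 0.05, 1058 higher (5.09%) and 1885 lower (9.07%). The split depends on the scaling: it was 1599 higher and 1877 lower after quantile normalisation, and 1293 and 1542 with array weights. The median was 0.12 among probes called higher and -0.18 among those called lower, and 34 probes (0.164%) reached 1.5-fold, 32 higher (0.154%) and 2 lower (0.00962%). Within set 1 alone 1679 probes were called, and within set 2, with 5 arrays, 84.

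All 4 group means had the same sign at 2685 of the called probes (12.9% of those tested), 939 higher (4.52%) and 1746 lower (8.4%), and at any p it was the same at 6610 probes (31.8%). The groups' own means gave fewer calls. They were 1253 in ssp (6.03%), 212 in dom (1.02%), 134 in mus (0.645%) and 133 in cas (0.64%), with a spread shared by the groups. These counts rest on single arrays. The ssp count was 332 without ssp 01, 390 without ssp 02 and 671 without ssp 03, and the dom count 402 without dom 01, 24 without dom 03 or dom 06 and 55 without dom 05. The mus count was 21 without mus 02, 13 without mus 04, 223 without mus 05, 45 without mus 07 and 34 without mus 08, and the cas count 15 without cas 01 and 48 without cas 03. Such counts do not show that the groups differ. The test of that difference itself, limma's F-test over the 4 group means, called 3 probes (0.0144%); before adjustment 1548 (7.45%) had a p under 0.05.

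Those 3 probes belong to Meig1, which is needed for spermatid differentiation, to Prpf40b, a pre-mRNA processing factor, and to Gnpnat1, an enzyme of hexosamine synthesis. They are named because so few passed, after their values were seen. Meig1 averaged -0.02 in dom, -0.11 in mus, 1.08 in cas and 0.47 in ssp, with a limma F-test adjusted p of 0.0169. The adjusted p was also 0.0169 for Prpf40b, at -0.12 in dom, -0.10 in mus, 0.57 in cas and 0.38 in ssp, and for Gnpnat1, at 0.01, 0.06, -0.47 and -0.21 in the same order. At each of the 3, cas stood farthest from dom and mus, with ssp between. None of the 3 was called in the mean over the 4 groups.

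Brain and liver/kidney were used to set apart what all tissues share, such as a bias of probe or dye that is the same in each. Every tissue had a pool of its own, so tests of the tissue difference also leave out the spread between C57BL6 mice. A dye effect that differs between tissues would remain in the difference. The mean over the same 4 groups was called at 1777 of 20639 probes in brain (8.61%) and at 6840 of 20652 in liver/kidney (33.1%). Testis minus the mean of the other tissues was called at 4618 of 20618 probes (22.4%), 1720 higher (8.34%) and 2898 lower (14.1%). Probes called in the testis mean and, with the same sign, in this difference numbered 1547 (7.44% of those tested in testis), of which 254 (1.22%) were higher and 1293 (6.22%) lower. This split too depends on the scaling: after quantile normalisation it was 548 higher and 1207 lower. Of the 1547, the 4 group means shared the sign at 1471 (7.08%), 240 higher (1.15%) and 1231 lower (5.92%). Against brain alone the difference was called at 2605 probes, and within set 1 at 2594.

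**Figure D1:**
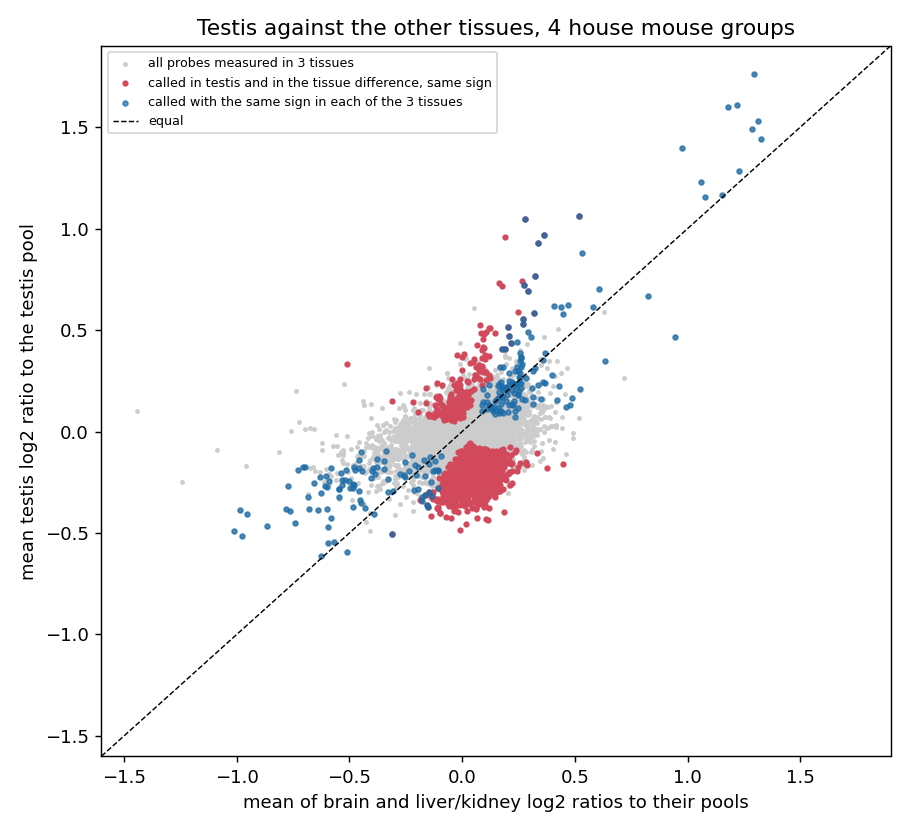
Mean log2 ratio of each probe in testis (vertical) against the mean of its brain and liver/kidney ratios (horizontal), over the 4 house mouse groups; the dashed line marks equal values. Red points are the 1547 probes called in testis and in the tissue difference with the same sign, most of them below 0, and blue points the 234 probes called with the same sign in each of the 3 tissues, which reach 1.76 in testis.

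The 10 largest ratios in each direction that were called in testis and in the tissue difference are given here, each gene by its probe with the smallest p. The higher ones were led by Nfx1, a DNA-binding regulator of transcription, Ppia, the abundant protein-folding enzyme cyclophilin A, and Frmpd1os, a transcript named as lying on the opposite strand of Frmpd1. Scand1, a small nuclear SCAN-domain protein, Atp5j, a subunit of the mitochondrial ATP synthase, and Ran, the small GTPase of nuclear transport, followed. Lower in order were Thoc7, of the THO complex of mRNA export, Eral1, a GTPase of mitochondrial ribosome assembly, Smarcd2, a subunit of SWI/SNF chromatin remodelling complexes, and Ufsp1, a protease of the UFM1 pathway.

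Nfx1 ranged over the 6 dom arrays from -0.17 to 0.99 (median 0.22), over mus from 0.44 to 1.62 (median 0.73), over the 3 cas arrays from 0.89 to 1.39 and over ssp from 0.51 to 1.91 (median 0.72). All but 2 dom arrays, 03 and 10, lay above 0, and the groups overlapped. The mean was 0.77 ± 0.11 (n = 21, 95% interval 0.54 to 0.99, limma adjusted p = 8.49e-05), a 1.7-fold ratio, against 0.37 in brain and 0.27 in liver/kidney. The tissue difference was 0.44 ± 0.12 (limma adjusted p = 0.00456). The other Nfx1 probes gave -0.03 and 0.04 in testis and were not called, so the ratio belongs to 1 probe of the gene.

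Ppia lay above 0 on all 21 arrays, from 0.10 to 1.92 with a median of 0.70. It was above 1 in cas 01 (1.68), ssp 01 (1.91), ssp 02 (1.92) and ssp 04 (1.26), and in mus only mus 07 (0.92) exceeded 0.38. Its mean was 0.72 ± 0.12 (limma adjusted p = 0.000207), with 0.28 in brain and 0.28 in liver/kidney, and the tissue difference was 0.45 ± 0.11 (limma adjusted p = 0.00263). Genes such as Ppia and those of ribosomal proteins have many near-identical copies in the genome, and without probe sequences their signal cannot be told apart from that of the copies. Frmpd1os was also above 0 on all 21 arrays (0.14 to 1.58, median 0.54; mean 0.69 ± 0.09, limma adjusted p = 2.41e-05).

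Means of the other 7 ran from 0.59 for Scand1 down to 0.56 for Atp5j, 0.51 for Ran, 0.51 for Thoc7, 0.49 for Eral1, 0.48 for Smarcd2 and 0.45 for Ufsp1, each above 0 on 18 to 20 arrays, with tissue differences of 0.27 to 0.39. The smallest of the 4 group means was in dom for Nfx1, Scand1, Ran, Thoc7, Smarcd2 and Ufsp1, and in mus for Ppia, Frmpd1os, Atp5j and Eral1. Across the 10 genes the median per array was 0.11 to 0.72 in dom, 0.17 to 0.65 in mus, 0.78 to 1.16 in cas and 0.33 to 1.47 in ssp, so every array was above 0. The 10 profiles over the 21 arrays correlated pairwise at r from 0.332 to 0.872 (median 0.662), a description of arrays that share 1 pool. By the median of the 10 genes ssp 02, cas 01 and ssp 01 were the highest arrays. In spretus the means were 0.62 for Nfx1, 0.06 for Ppia, 0.65 for Frmpd1os, -0.17 for Ran and 0.93 for Ufsp1. They were 0.95 for Scand1, 0.36 for Atp5j, 0.28 for Thoc7, 0.35 for Eral1 and 0.61 for Smarcd2. Each rests on 3 arrays, which for Nfx1 ran from -0.53 to 1.62.

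The 10 genes lower in the house mice than in the pool, and lower in testis than in the other tissues, have varied known roles. Pgm2l1 makes glucose bisphosphate, Slc22a15 is an organic ion transporter, Golga1 is a golgin, and Ift74 is part of the intraflagellar transport that builds cilia and the sperm tail. Bptf is the large subunit of the NURF chromatin remodelling complex, Ube2r2 a ubiquitin-conjugating enzyme and Trpc6 a cation channel; Ccdc30, Ttc14 and Ccdc82 code for coiled-coil or repeat proteins.

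Bptf was below 0 on all 21 arrays, from -0.71 to -0.05 with a median of -0.47, and its group means were nearly equal: -0.40 in dom, -0.39 in mus, -0.34 in cas and -0.45 in ssp. Its mean was -0.40 ± 0.04 (95% interval -0.48 to -0.32, limma adjusted p = 9.59e-07), against -0.08 in brain and -0.12 in liver/kidney. Ift74 was below 0 on every array too, from -0.90 (ssp 01) to -0.02 (cas 02), with a mean of -0.42 ± 0.05 (limma adjusted p = 2.46e-05) and -0.09 and -0.01 in the other tissues. The arrays of the 4 groups overlapped for both genes.

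Pgm2l1 had the lowest mean, -0.49 ± 0.07 (limma adjusted p = 9.43e-05), with 20 of 21 arrays below 0. Its lowest arrays were mus 02 (-1.12), mus 08 (-1.08) and mus 07 (-0.99), its highest cas 02 (0.10). Brain (0.01) and liver/kidney (-0.02) were near 0, and the tissue difference was -0.48 ± 0.07 (limma adjusted p = 7.69e-07). Pgm2l1 was thus low in testis in all 4 groups and close to the pool elsewhere.

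Slc22a15 averaged -0.44 ± 0.07 in testis and 0.21 in liver/kidney, where it was higher than the pool (limma adjusted p = 0.0167), and its tissue difference was -0.55 ± 0.08 (limma adjusted p = 2.03e-06). Trpc6 likewise averaged -0.40 ± 0.09 in testis and 0.33 in liver/kidney (limma adjusted p = 0.000621). The means were -0.43 for Golga1, -0.43 for Ccdc30, -0.42 for Ttc14, -0.42 for Ube2r2 and -0.40 for Ccdc82. Golga1 ranged widely, from -1.61 to 0.27, and within set 1 it was not called (-0.34, limma adjusted p = 0.099). Other probes of Ccdc30 (0.03) and Ttc14 (0.00) were not called, so these values too belong to single probes. Over the 10 lower genes the profiles correlated pairwise at r from 0.355 to 0.945 (median 0.703); the median per array was above 0 in mus 05 (0.10) and cas 02 (0.04), and lowest in mus 07 (-0.96).

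**Figure D2:**
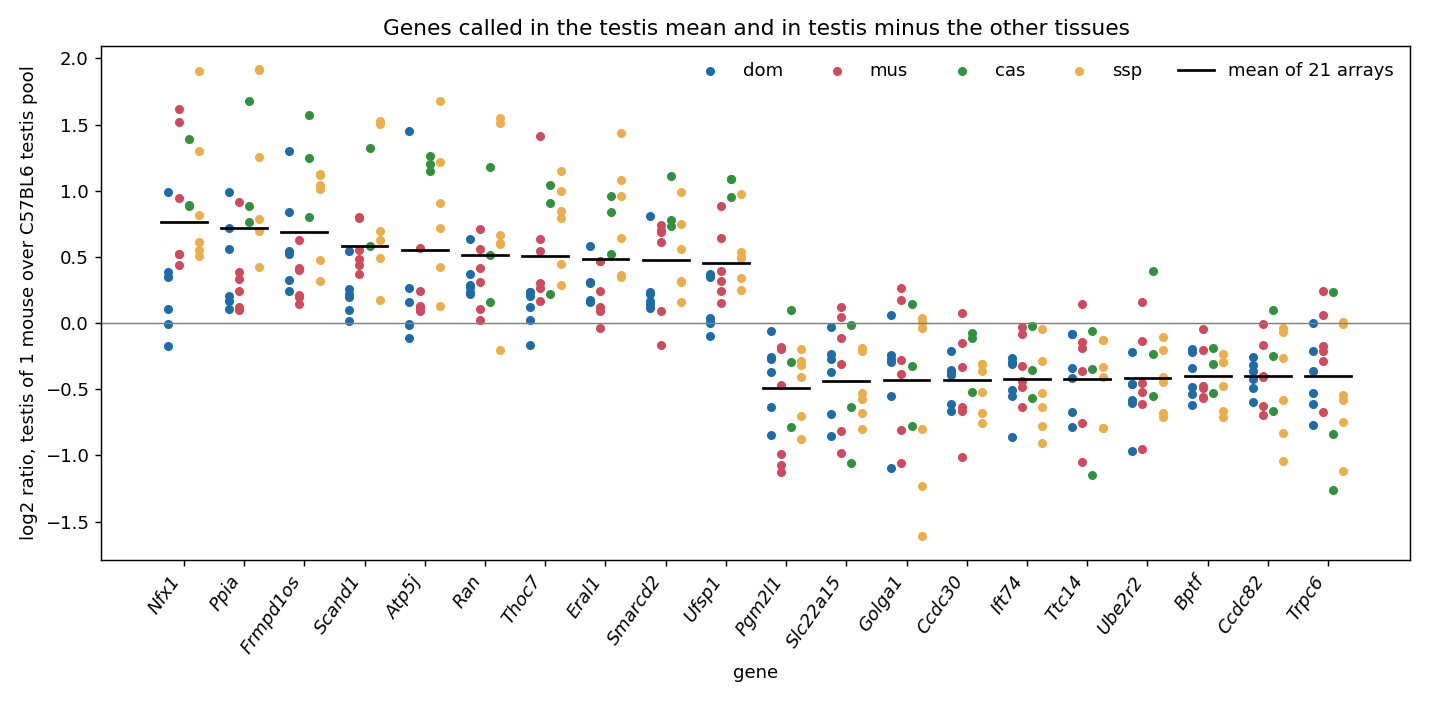
Log2 ratio of each testis array to the C57BL6 testis pool (vertical) for the 10 genes with the largest mean in each direction that were called both in the testis mean and in the tissue difference; points are arrays coloured by group and black bars the means of 21 arrays. For the higher genes most dom points (blue) lie below the mean bar, while for Ift74 and Bptf all points lie below 0.

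All 20 of these genes had the same sign in set 1 and in set 2. They were chosen on these same arrays for a large mean with 1 sign in all 4 groups. Agreement between sets, and calls kept in part of the arrays, were thus favoured by that choice and are no independent check. Within set 1, 19 of the 20 were called, and within set 2, with its 5 arrays, their limma adjusted p ran from 0.0545 to 0.291. None of the 20 lost its call in the testis mean when any 1 array was left out. The tissue difference of Atp5j was lost in 9 such runs (0.23 to 0.32 over all 21) and that of Scand1 without ssp 02 (0.22, limma adjusted p = 0.0501). Under the 9 other settings of the tissue difference Atp5j lost its call in 4, among them against brain only and against liver/kidney only. Against brain only, Smarcd2 (0.18, limma adjusted p = 0.165) and Ube2r2 (-0.27, limma adjusted p = 0.0529) were not called, and within set 1 Ttc14 was not (-0.22, limma adjusted p = 0.0601). Smarcd2 averaged 0.30 in brain and -0.11 in liver/kidney.

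Probes called with the same sign in all 3 tissues numbered 234 (1.13%), 136 higher (0.654%) and 98 lower (0.472%), and 157 of them (0.755%), 114 higher (0.549%) and 43 lower (0.207%), were not called in the tissue difference. The largest ratios of testis were of this kind: 28 of the 34 probes past 1.5-fold were called with the same sign in every tissue. Of the 34, 16 have 1 gene symbol. A difference of genotype that every organ carries and a probe or dye effect cannot be told apart here.

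Among them were Rpl41, a small protein of the large ribosomal subunit, Snrpc, the U1-C protein of the spliceosome, Nf1, the Ras regulator neurofibromin, Rab3gap1, a regulator of the vesicle GTPase Rab3, and Etd, a transcript of embryonic testis. For Rpl41 dom 03 (-0.89) and dom 05 (-0.24) were below 0, the other dom arrays were at 0.19, 0.57, 0.77 and, for dom 01, 2.35, while mus ran from 1.26 to 2.96, cas from 2.40 to 3.09 and ssp from 0.84 to 4.21. For Rpl41, 5 of the 6 dom arrays were thus below every mus, cas and ssp array, and dom 01, the only array of set 4, was among the others. The mean was 1.76 ± 0.25 (3.39-fold, limma adjusted p = 7.04e-05), with 1.34 in brain, 1.25 in liver/kidney and 1.10 in spretus testis. The difference between tissues was 0.47 ± 0.26 (limma adjusted p = 0.187).

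The other 4 followed the same arrays. Snrpc averaged 1.53 ± 0.22, Nf1 1.49 ± 0.21, Rab3gap1 1.44 ± 0.27 and Etd 1.40 ± 0.18 in testis, and the 5 profiles correlated pairwise at r from 0.781 to 0.975 (median 0.891). Dom 03 was the lowest array for each of these genes, at -2.91 for Rab3gap1. Other Nf1 probes gave 0.01 and 0.15 and were not called, so the ratio of Nf1 is that of 1 probe. What moves these 5 probes together was not tested.

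**Figure D3:**
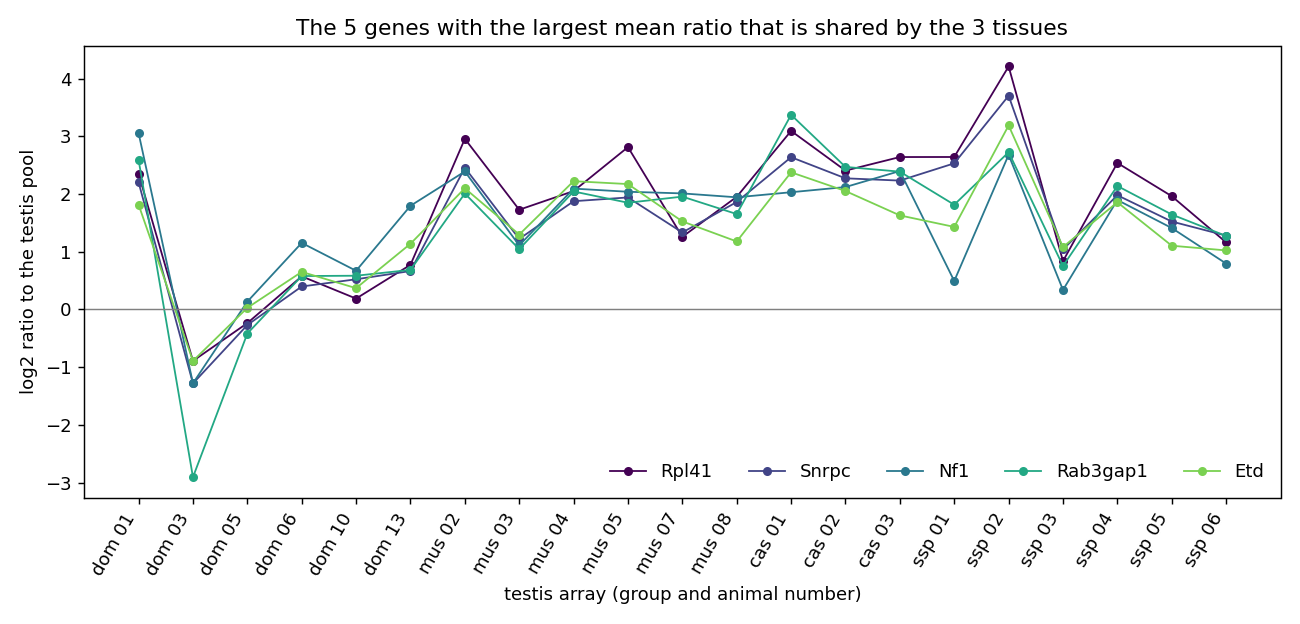
Log2 ratio to the testis pool (vertical) on each of the 21 testis arrays (horizontal, by group and animal number) for the 5 genes with the largest mean ratio shared by the 3 tissues; the lines only join the values of a gene. The 5 genes move together, with dom 03 lowest and ssp 02 highest for Rpl41 (4.21), and dom 01 is apart from the other 5 dom arrays.

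Lower in all 3 tissues were Bid, a pro-apoptotic member of the Bcl-2 family, Cblif, the gastric intrinsic factor that binds vitamin B12, the transcription factor Runx3, the kinase Hipk2 and the lipoprotein receptor Vldlr. Bid averaged -0.61 ± 0.09 in testis (20 of 21 arrays below 0, limma adjusted p = 0.000132), -0.71 in brain and -0.54 in liver/kidney, and was lowest in dom (-0.93). Cblif was below 0 on all 21 arrays (-1.03 to -0.11, mean -0.55 ± 0.05, limma adjusted p = 6.96e-07), and Hipk2 on all 21 as well (-0.90 to -0.15, mean -0.47 ± 0.05). Runx3 averaged -0.54 ± 0.08 and Vldlr -0.41 ± 0.04. Other probes of Runx3 (0.02) and Hipk2 (0.05) were not called. In liver/kidney Cblif (-0.92), Runx3 (-0.85) and Hipk2 (-0.90) had lower means than in testis, and against brain alone the tissue difference of Cblif was -0.28 (limma adjusted p = 0.0369), lower in testis.

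Gene lists were read on 1 value per gene, the mean over its probes. Of 13740 genes tested, limma called 2080 (15.1%), 713 higher (5.19%) and 1367 lower (9.95%), around a median of 0.00, and 3251 of 13623 (23.9%) in the tissue difference, 1152 higher (8.46%) and 2099 lower (15.4%). The lists were chosen with earlier results of these data known, and each count is to be read beside those shares.

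Of the 29 lists, cytosolic ribosomal protein genes had the largest share of higher members. Of 45 measured, 18 were higher and 2 lower, and the median was 0.07, with 0.08 in brain and 0.06 in liver/kidney. The list's median was above 0 on 20 of 21 arrays, from -0.05 to 0.21. After Rpl41 the highest were Rpl38 (0.58 ± 0.09, limma adjusted p = 0.000161), Rpl10a (0.40 ± 0.12), Rplp2 (0.37 ± 0.06), Rpl26 (0.33 ± 0.05, limma adjusted p = 0.000129) and Rpl10 (0.32 ± 0.06). Rpl38 was above 0 on all 21 arrays, from 0.01 to 1.29, with the highest group mean in cas (1.08) and the lowest in mus (0.25).

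The other tissues had positive means for many of them too. Rpl38 averaged 0.43 in brain and 0.46 in liver/kidney, Rpl26 0.26 and 0.27, and Rplp2 0.21 and 0.31, and none of the 3 was called in the tissue difference. Rpl10a, at 0.18 and 0.00 in the other tissues, Fau (0.23 ± 0.07) and Rpl30 (0.11 ± 0.03) were. The 2 lower members were Rpl3 (-0.25 ± 0.05, limma adjusted p = 0.00125) and Rpl4 (-0.18 ± 0.04, limma adjusted p = 0.00608). Their brain means were 0.00 and 0.09, and both were lower in testis than elsewhere. In the whole list 5 of 45 members were called higher in the tissue difference and 8 lower, beside 8.46% and 15.4% of all genes.

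**Figure D4:**
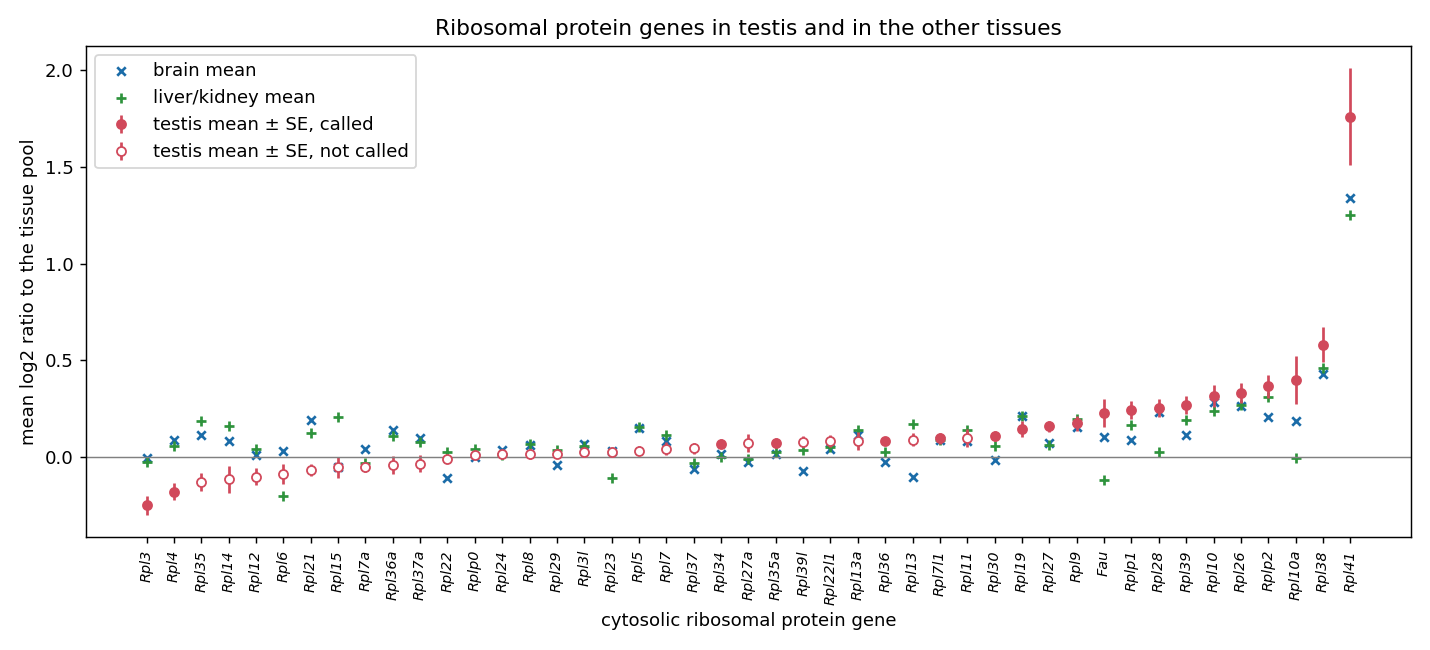
Mean log2 ratio to the tissue pool (vertical) of the 45 cytosolic ribosomal protein genes, ordered by their testis mean; circles are testis means of 21 arrays ± SE, filled where called, and crosses and plus signs the brain and liver/kidney means. The 18 called higher lie to the right up to Rpl41 at 1.76, mostly with crosses and plus signs above 0 too, and Rpl3 and Rpl4 at the left.

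Ribosomal protein genes often start transcription in a run of pyrimidines, which their mRNAs carry as a signal for translational control. The start regions of the 4 called-higher members with the largest means that the promoter table holds are shown to let that run be seen, from 60 bases before the start to 15 from it on, in RefSeq's GRCm38.p6; capitals mark CTTTC where it lies within 15 bases of the start.
Rpl41, chr10:128549154-128549228, minus strand: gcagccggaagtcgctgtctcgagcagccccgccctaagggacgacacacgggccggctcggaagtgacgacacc
Rpl38, chr11:114668520-114668594, plus strand: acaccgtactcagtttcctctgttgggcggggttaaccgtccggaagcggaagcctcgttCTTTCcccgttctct
Rpl10a, chr17:28328411-28328485, plus strand: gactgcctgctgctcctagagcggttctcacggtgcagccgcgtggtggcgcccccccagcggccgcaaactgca
Rplp2, chr7:141447591-141447665, plus strand: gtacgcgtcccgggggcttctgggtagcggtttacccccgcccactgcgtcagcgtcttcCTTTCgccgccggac
In Rpl38 and Rplp2 the letters CTTTC begin at the first transcribed base, and in Rpl41 and Rpl10a they do not occur in that window. Of the 37 list members with a promoter in the table, 12 (32.4%) held CTTTC on the transcribed strand there, against 4.07% of all 27025 promoters. On the other strand, read as GAAAG, the shares were 5.41% and 3.56%. A match describes letters in a window and says nothing on the cause of a ratio.

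Of genes of oxidative phosphorylation, 11 of 81 were higher and 6 lower, median 0.02. Higher were Atp5j of the ATP synthase, Sdhb of complex II (0.43 ± 0.07, limma adjusted p = 0.000271; 0.12 in brain and 0.45 in liver/kidney) and 5 subunits of cytochrome c oxidase, Cox5a (0.31 ± 0.06), Cox4i1 (0.23 ± 0.06), Cox7a2 (0.17), Cox7c (0.15) and Cox6c (0.14). Lower were Ndufb3 (-0.32 ± 0.09), Ndufb7 (-0.28 ± 0.03) and Ndufv1 (-0.15 ± 0.04) of complex I, Atp5pb (-0.24 ± 0.07), Sdha and Sdhc. Ndufb7 was below 0 on all 21 arrays, with 0.04 in brain and 0.04 in liver/kidney and a tissue difference of -0.31 (limma adjusted p = 3.84e-07). Complexes thus held members on both sides, Sdhb higher and Sdha and Sdhc lower within complex II. Of 48 proteasome genes 2 were higher and 7 lower, median 0.00, led by the assembly chaperone Psmg4 (-0.32 ± 0.07) and by Psmc5 (-0.19 ± 0.06) and Psmd6 (-0.18 ± 0.04) of the regulatory particle.

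Of 35 meiotic genes measured, 6 were lower and 1 higher, with a median of -0.01. The lower ones were Syce1 (-0.27 ± 0.05, limma adjusted p = 0.000735), Tex12 (-0.15 ± 0.04) and Sycp3 (-0.19 ± 0.06) of the synaptonemal complex that holds paired chromosomes, Spo11 (-0.14 ± 0.05), which makes the breaks that start recombination, Mei4 (-0.23 ± 0.07), which those breaks need, and Brdt (-0.23 ± 0.07), a bromodomain reader of acetylated histones. Syce1 was below 0 on 19 of 21 arrays (-0.80 to 0.21), with 0.06 in brain, 0.04 in liver/kidney and a tissue difference of -0.32 (limma adjusted p = 2.91e-06). The higher one was Piwil1 (0.12 ± 0.03), which binds small RNAs in spermatocytes and spermatids. Beside these, the marker list of spermatogonia had 1 of 19 lower, the D-type cyclin Ccnd2 (-0.10 ± 0.02), and a median of 0.02. The Ccnd2 value is a mean over probes, of which 1 gave -0.004 and was not called. The part of cell makeup in the meiotic values was not tested.

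Spermatid genes had 3 of 50 higher and 3 lower, median 0.01; after quantile normalisation 7 were higher and 4 lower. The higher ones were Tnp1, a transition protein that replaces histones (0.36 ± 0.11, limma adjusted p = 0.0323), Prm1, the protamine that follows it (0.26 ± 0.06, limma adjusted p = 0.00785), and Oaz3, the antizyme of spermatids (0.22 ± 0.07). Tnp1 averaged 0.03 in dom, 0.02 in mus, 0.81 in cas and 0.79 in ssp. Its group means were thus higher in cas and ssp, but limma's F-test among the groups called none of Tnp1, Prm1 and Catsper1. Prm1 ranged from -0.23 to 0.91 and was above 0 on 14 arrays, with group means of 0.15 in dom, 0.05 in mus, 0.50 in cas and 0.45 in ssp and -0.26 in spretus. It was near 0 in brain (-0.04) and liver/kidney (-0.04), and its tissue difference was 0.30 (limma adjusted p = 0.000122). The lower ones were Catsper1, a pore subunit of the sperm calcium channel (-0.28 ± 0.08; -0.09 in dom, -0.09 in mus, -0.53 in cas and -0.53 in ssp), the kinase Tssk2 (-0.25 ± 0.05, limma adjusted p = 0.000758) and the acrosomal protein Spaca7 (-0.23 ± 0.06).

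Energy metabolism of sperm had 3 of 13 higher and 1 lower. The higher ones were the acetyl transferase Crat (0.14 ± 0.03), the pyruvate and lactate transporter Slc16a7 (0.13 ± 0.03) and the hexokinase Hk1 (0.09 ± 0.03). The lower one was Pgk2 (-0.10 ± 0.03), the phosphoglycerate kinase of spermatogenic cells. Crat averaged 0.18 in brain and 0.45 in liver/kidney, and Pgk2 0.14 and -0.48. Neither Crat nor Pgk2 was called in the tissue difference, while Slc16a7 was (0.15). Among 28 genes of sperm-egg interaction 2 were higher, zonadhesin Zan (0.17 ± 0.04) and Adam3 (0.17 ± 0.05), and 4 lower, Tmprss12 (-0.21 ± 0.04), Adam24 (-0.19 ± 0.06), Clgn (-0.16 ± 0.03), the chaperone that Adam3 needs, and Ly6k (-0.15 ± 0.04). With any 1 of 7 arrays omitted Adam24 was not called (-0.21 to -0.16 over all 21 omissions), nor was it under 7 of 13 other settings. All 6 were called in the tissue difference with the same sign. In testis 1 probe of Clgn (-0.08) and 1 of Ly6k (-0.04) were not called. Of 11 piRNA genes Henmt1, the methylase of piRNA ends (0.18 ± 0.03), and Piwil1 were higher and Tdrd12 (-0.20 ± 0.06) lower. Among 46 genes named Tex or Spata 3 were higher, with Tex43 at 0.25 ± 0.03 (limma adjusted p = 3.39e-05). Of them, 7 were lower, with Tex26 at -0.34 ± 0.05 and Tex15 at -0.32 ± 0.07. Tex26 was also lower than the pool in brain (-0.20, limma adjusted p = 0.036) and in liver/kidney (-0.16, limma adjusted p = 0.00309). Tested over all probes, its tissue difference was -0.16 (limma adjusted p = 0.0538). Tex43 averaged 0.07 in brain and 0.13 in liver/kidney, with a tissue difference of 0.15 (limma adjusted p = 0.00526).

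Germline genes that lie on X or Y had 1 of 33 higher and 5 lower, median -0.03. The higher one was Zfy2, a zinc finger factor of the Y chromosome with roles in meiosis: 18 of 21 arrays were above 0 (-0.42 to 0.89), the mean was 0.40 ± 0.07 (limma adjusted p = 0.000301) and all 6 dom arrays lay at or above 0.36. It was 0.17 in brain and 0.34 in liver/kidney. The lower ones were Tex13a (-0.39 ± 0.09), Cypt3 (-0.33 ± 0.07), Kdm5d, a histone demethylase of the Y chromosome (-0.30 ± 0.06, limma adjusted p = 0.00109), Tex16 (-0.27 ± 0.07) and Pramel3 (-0.14 ± 0.04). Cypt3 averaged -0.09 in brain and -0.55 in liver/kidney and was not called in the tissue difference. Kdm5d, at -0.10 and -0.07 in those tissues, was called there (-0.22). By chromosome, 25 of 471 X-linked genes were higher (5.31%) and 54 lower (11.5%), beside 5.19% and 9.95% of all genes. Chromosome 13 had the highest share of lower genes of any chromosome, 14.8% of 535 genes, and chromosome 17 the highest share of higher ones among autosomes, 7.7% of 636.

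Somatic cell markers were read for cell makeup. Sertoli cell genes had 3 of 30 higher, Etd among them, with Espn (0.19 ± 0.04) and Cst12 (0.13 ± 0.03), and 1 lower, the homeobox gene Rhox5 (-0.12 ± 0.02, limma adjusted p = 8.21e-05), below 0 on 20 of 21 arrays. Etd averaged 0.87 in brain and 1.08 in liver/kidney, and Rhox5 -0.12 and -0.04. Neither Etd nor Rhox5 was called in the tissue difference, while Espn was (0.19). The list of Leydig cell and steroid genes had 2 of 24 higher. They were Tspo (0.08 ± 0.02), which binds cholesterol in mitochondria, and Insl6 (0.09 ± 0.03), which is not a marker of Leydig cells alone. Insl6 lost its call in 9 runs that left out 1 array. Peritubular and interstitial markers had 2 of 20 lower, the endothelial cadherin Cdh5 (-0.25 ± 0.04, limma adjusted p = 0.000351) and Mgp (-0.13 ± 0.04). Macrophage and lymphocyte markers had 1 of 21 lower, Cd4 (-0.19 ± 0.03), and red cell markers 1 of 11, Car2 (-0.23 ± 0.04). Medians of these 5 lists lay between -0.03 and 0.02.

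Markers of neighbouring tissue and of other organs were read in the same way. Epididymis and accessory gland genes had 2 of 20 higher, Gpx5 (0.19 ± 0.06) and Spinkl (0.18 ± 0.05), and 2 lower, the seminal vesicle proteins Svs2 (-0.24 ± 0.06) and Svs5 (-0.15 ± 0.04), with list medians per array from -0.07 to 0.04. Brain markers had 1 of 14 higher and 1 lower, and liver and kidney markers 1 of 16 higher and 1 lower. Olfactory and vomeronasal receptors, which are mostly silent outside the nose and of which some are transcribed in testis, had 5 of 136 higher and 5 lower. The highest of them, Olfr948 (1.16 ± 0.25), was as high in brain (1.11) and in liver/kidney (1.05).

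Interferon response genes had 1 of 33 higher and 4 lower, among them the antiviral sensors and effectors Ifih1 (-0.24 ± 0.06) and Rsad2 (-0.13 ± 0.03, limma adjusted p = 0.00218). Genes of the major histocompatibility complex had 1 of 24 higher, H2-DMb1 (0.10 ± 0.02), and 1 lower, H2-Eb2 (-0.11 ± 0.03), of which 1 probe (-0.08) was not called. Of 28 immediate early and heat shock genes Fos (-0.23 ± 0.04, limma adjusted p = 0.000586) and Atf3 (-0.21 ± 0.04) were lower and Jun (0.13 ± 0.04), Dnajb1 (0.06 ± 0.02) and Dnajb3 (0.10 ± 0.03) higher. After quantile normalisation 6 of them were higher and 4 lower. Genes of oxidative stress and glutathione had 3 of 40 higher and 6 lower, with the quinone reductases Nqo2 (-0.24 ± 0.05) and Nqo1 (-0.15 ± 0.03) and the glutathione transferase Gsta4 (-0.18 ± 0.04) among the latter. After quantile normalisation 8 were higher and 6 lower, so the balance of that list turned. In liver/kidney the median of that list was 0.07, in testis 0.02.

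Among gene families, of 171 C2H2 zinc finger genes named Zfp 9 were higher and 20 lower, with a median of -0.02 and a list median below 0 on 16 of 21 arrays; Zfp329 (-0.31 ± 0.04, limma adjusted p = 3.39e-05) and Zfp14 (0.23 ± 0.03, limma adjusted p = 8.2e-05) were its lowest and highest members. Adam proteases had 2 of 25 higher and 2 lower, and serine proteases named Prss or tryptase 3 of 22 higher and 2 lower, with Prss54 at -0.26 ± 0.03 and below 0 on all 21 arrays. Of 11 beta-defensin genes limma called 0 after adjustment and 1 higher and 1 lower at an unadjusted p under 0.05; with quantile normalisation 1 was called.

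**Figure D5:**
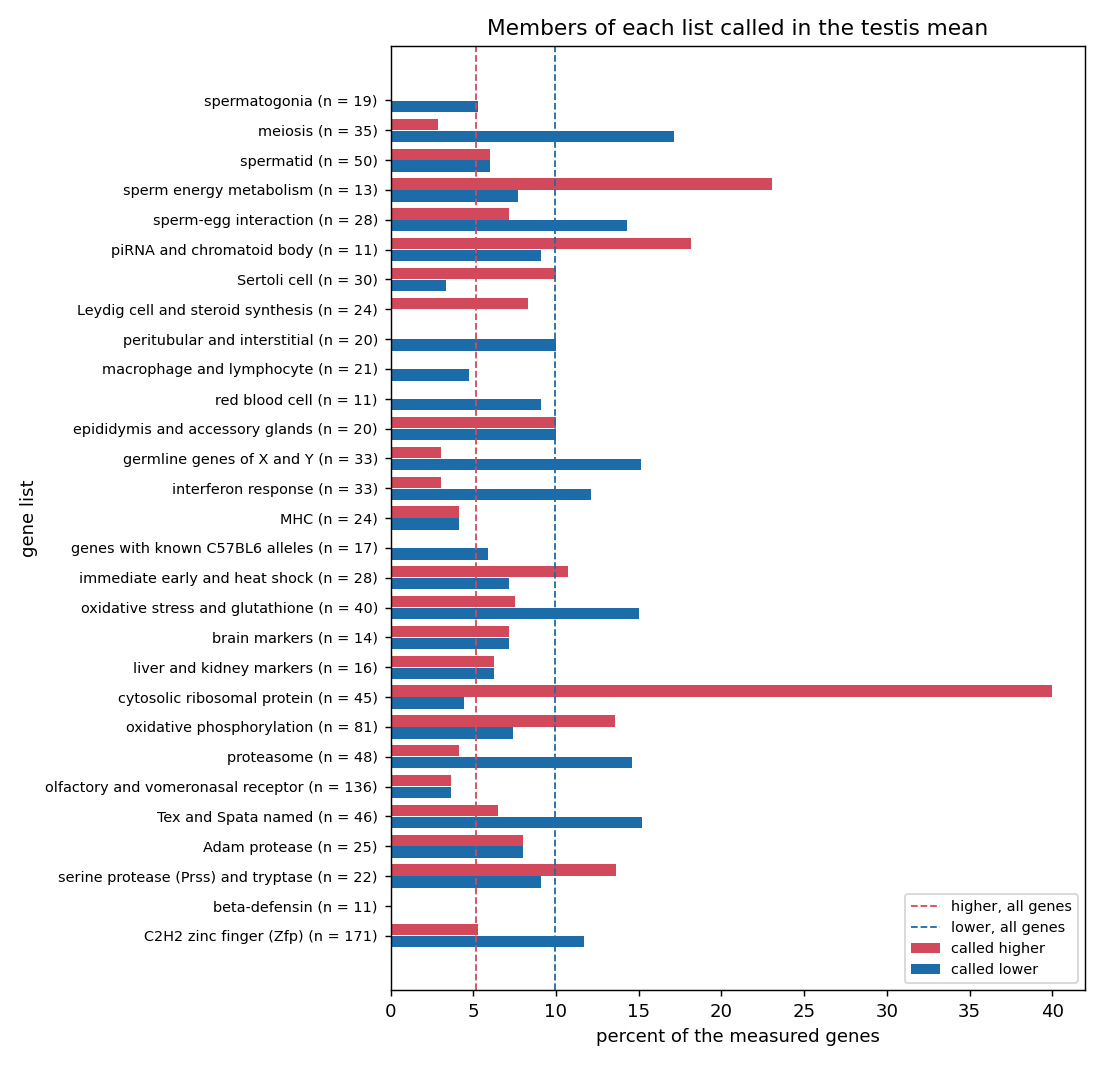
Share of measured members of each of the 29 gene lists (vertical, with the number measured) that limma called higher (red bars) or lower (blue bars) in the testis mean, in percent (horizontal); dashed lines mark 5.19% and 9.95%, the shares over all genes. The red bar of ribosomal protein genes (18 of 45) is the longest. Blue bars of 10 lists pass the dashed blue line, the longest that of meiosis (6 of 35). Those of peritubular and of epididymis genes (2 of 20 each) lie almost on the line.

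C57BL6 carries known variant alleles at some genes, which were read because the pool is of that strain. Of 17 such genes measured, limma called 0 higher (0 also at an unadjusted p under 0.05) and 1 lower, Entpd4 (-0.17 ± 0.05, limma adjusted p = 0.0188; dom at 0.00 and mus at -0.33). Nnt, a mitochondrial transhydrogenase of which a C57BL6 substrain has lost exons, averaged 0.06 ± 0.05 in testis (limma adjusted p = 0.497), -0.10 in brain and -0.43 in liver/kidney, from -0.32 to 0.80 over the testis arrays. Mx1, an antiviral GTPase that is defective in most laboratory strains, averaged 0.12 ± 0.06 (limma adjusted p = 0.198) and ranged from -0.41 to 0.97, with dom at 0.33. The probes' positions in these genes are not known here, so a probe outside a deleted part would not show it. The other 14 genes had means from -0.08 to 0.06 and were not called.

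Genomic length was read beside the calls. RefSeq gives a genomic length for 13704 of the 13740 genes (99.7%). The median was 13.4 kb (quartiles 5.01 and 35.9) for the genes called higher, 19.1 kb (8.06 and 48.4) for those called lower and 18.1 kb (6.82 and 46.1) for all, and it was 14.1 kb for the higher ones without the ribosomal list. In the fifth of genes with the shortest spans 6.64% were higher and 8.21% lower, and in the fifth with the longest 4.27% and 10.1%. These are descriptions with no test.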

How the data were processed

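RNA ratios were measured on 72 arrays with 2 channels. What the authors deposited are ratios on a log scale, read here as log2 (range -5.71 to 5.77). How they scanned, corrected and normalised the arrays is "not given in the sources used here". Array medians in testis lay between -0.01 and 0.06. Neighbouring duplicate spots (22320 pairs) were averaged, 1488 single spots dropped and 232 Gapdh pairs made 1 probe. Of 22089 probes, the platform annotation gives 1 symbol for 15801, 294 have several and 5994 are unnamed here; Entrez identifiers of 15601 were found in RefSeq and 0 symbols needed an update. Probe sequences and coordinates were not used.

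Arrays were centred on their median. Probes with at least 2 values in each of the 4 groups were fitted with limma 3.58.1 (lmFit, eBayes, two-sided, Benjamini-Hochberg over all probes) in R 4.3.3 with data.table (release 1.17.8): the mean of 21 arrays against 0, 1 mean per group, an F-test among groups, and testis minus the mean of brain and liver/kidney over 63 arrays. The fits were tested on simulated data. A brain array titled mus carries a domesticus channel label; both are among the 4 groups. Each replicate is 1 male on 1 array. The p-values rest on the spread between these arrays, in which mouse and array cannot be told apart. The number of arrays limits the precision: the median SE of a probe's testis mean was 0.03.

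Named genes follow a rule: the 10 largest means in each direction among probes called in testis and in the tissue difference with 1 sign in all 4 groups; the 5 largest in each direction among those called alike in all 3 tissues and not in the difference; from each list up to 3 called members, by smallest p; and all measured genes with known C57BL6 alleles. Names of clones, gene models or LOC type, and probes without exactly 1 symbol, were skipped. Further list members were picked with their values in view. The members, the 29 lists and the tests were chosen with earlier results of these data known. Alternatives were other block terms, centring, quantile normalisation, array weights, single spots, filters, sets of arrays and leaving out each array. Plots were drawn with matplotlib 3.10.9 on Python 3.11.15 (numpy 2.4.6, pandas 2.3.3).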

Additional observations from a re-analysis of the deposited data

Results flagged for a closer look

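In 342 checks of a named gene within dom, mus or ssp, 27 found 1 array apart from the other 5 by Dixon's criterion, which chance meets in about 1 of 20 checks. The 27 values lie on 12 arrays. Dom 01 accounts for 7: Atp5j 1.45, Ran 0.63, Smarcd2 0.81, Spinkl 0.74, Ide -0.38, Trem3 -0.51 and Mmp9 -0.06. The array is the only one of its set of missing spots. In dom, Eral1 was 0.58 in dom 06 and Mmrn1 0.48 in dom 13. In mus, Ppia was 0.92, Prss1 0.33 and Mgp -0.34 in mus 07, Cd4 -0.59 and Nqo1 -0.45 in mus 08, Nf1 1.11 and Mmp9 -0.30 in mus 03, Car2 0.10 and Gabra2 0.38 in mus 05, and Atp5j 0.56 in mus 04. In ssp, Prss1 was 0.61, Rhox5 -0.26 and Il2 -0.23 in ssp 01, Pgk2 -0.32, Mx2 -0.91 and Ahr 0.51 in ssp 02, Cdh5 -0.07 in ssp 05 and Slc16a7 0.04 in ssp 06.

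Testis differed from the mean of brain and liver/kidney at 4618 probes by limma. For the named genes higher in testis the tissue difference was 0.44 for Nfx1, 0.45 for Ppia, 0.40 for Frmpd1os, 0.27 for Scand1, 0.29 for Atp5j, 0.39 for Ran, 0.39 for Thoc7, 0.34 for Eral1, 0.39 for Smarcd2 and 0.36 for Ufsp1. For those lower in testis it was -0.48 for Pgm2l1, -0.55 for Slc22a15, -0.54 for Golga1, -0.49 for Ccdc30, -0.37 for Ift74, -0.35 for Ttc14, -0.28 for Ube2r2, -0.30 for Bptf, -0.38 for Ccdc82 and -0.58 for Trpc6. Among the 4 groups, limma's F-test called Prpf40b, Gnpnat1 and Meig1, each at an adjusted p of 0.0169.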

How the results depend on the processing

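The count of probes called in the testis mean was 1679 within set 1 and 84 within set 2, and 34 of the calls reached 1.5-fold; with the same sign in the groups present the counts were 1611, 84 and 34. With the set of missing spots as a random block it was 1970, all of them among the 2943. The tissue difference was called at 2605 probes against brain only and at 2594 within set 1 (chosen after seeing the data), and the calls in both numbered 707 there. Leaving out 1 array gave 2507 to 3118 calls in the testis mean (2144 to 2830 with the same sign), 3733 to 4833 in the tissue difference and 1237 to 1694 in both. A group's own count rested on its arrays: with the spread of that group alone it was 1 in dom, 58 in mus, 12 in cas and 36 in ssp, with quantile normalisation 696 in mus and 361 in cas, and without 1 array 24 to 402 in dom, 13 to 223 in mus, 15 to 107 in cas and 332 to 1494 in ssp. Against brain only, the tissue difference of Cblif turned to -0.28 and that of Zfp111 to 0.16. Cblif averaged -0.55 in testis, between -0.27 in brain and -0.92 in liver/kidney. Zfp111 averaged 0.21, between 0.05 and 0.39. For both, the differences from brain and from liver/kidney thus had opposite signs. The testis mean of each named gene that was called kept its sign under every setting run. Of 13 settings beside leaving out 1 array, the call itself was lost in 7 for Insl6 and Adam24. It was lost in 6 for Prss12 and Adam28 (of 12 settings for Adam28) and in 5 for Fgg, Umod and Syt1. For Mgp, Pgk2, Tex12 and Gad2 it was lost in 4. Golga1, Piwil1, Tdrd12, Dnajb1, Entpd4, H2-DMb1, Adam8 and Adar lost it in 3. For each of these genes the 5 arrays of set 2 alone were among those settings. Leaving out 1 array lost the call in 13 of 21 runs for Umod, 10 for Syt1 and 9 for Insl6. Animal numbers are shared between tissues. Deviations of the same number correlated at a median r of 0.0140 with brain (highest 0.13) and 0.0522 with liver/kidney (highest 0.184). Closest to their own number were 5 of 21 animals in brain and 6 in liver/kidney. Such weak correlations neither show nor exclude that the tissues came from the same mice. With the replicate block 4745 probes were called in the tissue difference and 1569 in both.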
